A study of Homo sapiens with 12 samples.

Results

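The 10 genes described here are sensors of foreign RNA, the signalling proteins behind them, the interferons they induce and a receptor for those interferons, out of 58735 genes measured in 12 RNA sequencing libraries. They are DDX58 (the gene of RIG-I), IFIH1 (MDA5), DHX58 (LGP2), TLR3, MAVS, IRF3, IFNL1, IFNL2, IFNB1 and IFNLR1, taken by gene symbol. The genes were selected on their measured values in these same libraries, so their levels and differences are given as a description, without p-values. KYSE180 and KYSE150 are established lines of human oesophageal squamous cell carcinoma, and the study asked how CDCA7, a nuclear protein that partners the chromatin remodeller HELLS, acts on the mesenchymal transition. The 4 groups had 3 libraries each. KYSE180 was grown as wild-type native control cells and as cells overexpressing CDCA7. KYSE150 was grown as wild-type native control cells and as cells with a hairpin RNA against CDCA7 (shCDCA7). All groups were grown in the same serum-containing medium. The controls are labelled native, and no label names an empty vector or another hairpin. An effect of the vector or of the hairpin RNA therefore cannot be told apart from an effect of CDCA7. The labels leave unsaid whether the modified cells were clones or pools.

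RIG-I and MDA5 are cytosolic helicases that bind viral or misplaced double-stranded RNA, and LGP2 is a relative without signalling domains that modulates them. Bound RIG-I and MDA5 join MAVS on mitochondria, while TLR3 senses double-stranded RNA in endosomes, and both routes activate the transcription factor IRF3 and, with NF-kB, switch on interferon beta and the lambda interferons. Lambda interferons act mainly on epithelia, through a receptor made of IFNLR1 and IL10RB, and induce many antiviral genes, the RNA sensors among them.

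Values are FPKM as deposited, that is reads scaled to gene length and to a library size that was not the total of reads. This size was below the total in every shCDCA7 library and above it in every KYSE150 control. It was 1.37e+07 against 1.70e+07 reads in shCDCA7 replicate 2, and 2.14e+07 against 1.96e+07 reads in KYSE150 control replicate 1. Differences are on the log2(FPKM + 1) scale, manipulated minus control, fitted with limma-trend, a scale that understates the ratio for genes near or below 1 FPKM. Libraries held 16.3 M to 19.6 M reads. CDCA7 stood at 17.4 to 24.0 FPKM in KYSE180 controls and 44.6 to 59.1 in overexpressing cells, and at 25.6 to 27.4 FPKM in KYSE150 controls and 8.83 to 10.1 in shCDCA7 cells, as labelled. All 8 markers of squamous epithelium averaged 1 FPKM or more in every group. None of 9 leukocyte markers reached a group mean of 1 FPKM, and their summed FPKM was 0.495 to 1.91 per library. Of 4 markers of plasmacytoid dendritic cells, LILRA4 had 0 reads in every group and CLEC4C had 1 read in all. TCF4 and IL3RA, which other cells express too, averaged 3.29 and 0.945 FPKM in KYSE180 controls and 3.36 and 0.222 in overexpressing cells. The 4 markers summed to 2.94 to 5.03 FPKM per library in KYSE180 and 0.273 to 0.680 in KYSE150. The summed squamous markers were 1892 and 2199 FPKM in KYSE180 control replicates 3 and 1 but 4092 in replicate 2, against 4255 to 5076 in overexpressing cells. Mitochondrial genes took 4.76% to 6.38% of reads in KYSE180 controls and 7.97% to 8.65% in overexpressing cells. They took 4.03% to 4.15% in KYSE150 controls, and 5.20% and 5.73% in shCDCA7 replicates 1 and 3 but 11.2% in replicate 2. The part of these shifts in the results below was not tested, and results that moved without KYSE180 control replicate 2 or shCDCA7 replicate 2 are also given without it. Nothing in the labels says that replicates were separate cultures, so a p-value covers only library-to-library spread, possibly technical in origin. In bulk RNA, fewer expressing cells and less RNA per cell cannot be told apart.

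The upstream stretches of 1 sensor and 3 interferon genes are shown because their reads are followed below and IRF and NF-kB factors are known to drive such genes. The windows are RefSeq's for GRCh38.p14, up to 250 bases before the gene start, cut where the gene model of the deposited table begins, written 5′ to 3′ on the gene's strand. Capitals mark matches, on either strand, to GAAANNGAA, a core shared by IRF and interferon-stimulated response elements, and to the NF-kB consensus. Neighbouring matches overlap in IFIH1 and IFNL1, and the IFIH1 match nearest the gene start crosses the cut and is not marked.
IFIH1, chr2:162318704-162318934, minus strand: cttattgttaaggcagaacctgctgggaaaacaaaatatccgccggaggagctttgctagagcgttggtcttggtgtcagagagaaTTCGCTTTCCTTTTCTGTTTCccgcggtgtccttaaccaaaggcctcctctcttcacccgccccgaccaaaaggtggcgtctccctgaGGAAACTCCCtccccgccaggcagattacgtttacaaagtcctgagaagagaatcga
IFNB1, chr9:21077964-21078192, minus strand: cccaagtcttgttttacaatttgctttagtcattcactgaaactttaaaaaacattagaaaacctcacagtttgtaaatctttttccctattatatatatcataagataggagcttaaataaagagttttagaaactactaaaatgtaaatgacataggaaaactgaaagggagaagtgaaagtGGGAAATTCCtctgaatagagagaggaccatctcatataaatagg
IFNL1, chr19:39296157-39296324, plus strand: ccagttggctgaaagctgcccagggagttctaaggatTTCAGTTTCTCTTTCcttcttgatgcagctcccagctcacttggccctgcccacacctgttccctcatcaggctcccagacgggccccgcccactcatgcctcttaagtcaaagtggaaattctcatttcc
IFNL2, chr19:39268146-39268395, plus strand: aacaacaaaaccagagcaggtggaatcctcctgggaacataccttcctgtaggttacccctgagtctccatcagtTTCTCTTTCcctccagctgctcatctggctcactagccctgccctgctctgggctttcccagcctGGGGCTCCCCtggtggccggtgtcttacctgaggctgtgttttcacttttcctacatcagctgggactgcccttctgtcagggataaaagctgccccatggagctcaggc

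RefSeq windows were found for 8 of the 10 genes. GAAANNGAA occurred in the full windows of 3 of them, with 4 matches in IFIH1, 2 in IFNL1 and 1 in IFNL2, and in 6.88% of all 35116 windows of 250 bases. The NF-kB consensus occurred in DDX58, IFIH1, IFNB1 and IFNL2, and in 5.21% of all windows. In DDX58 it read GGAAAATCCC, 76 to 67 bases before the RefSeq start. The GAAANNGAA cluster of IFNL1 lay 213 to 199 bases before its start, and that of IFIH1 164 to 144 bases before. IFNB1 held no match to these GAAANNGAA letters in its window. The IFNL2 window and that of IFNL3, a neighbouring copy, differed at 1 of 250 bases. A match describes the letters only.

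The native lines differed in their sensor levels. DDX58 averaged 14.5 ± 7.14 FPKM (SD, n = 3) in KYSE180 controls and 1.29 ± 0.138 in KYSE150 controls, a ratio of 11.2. The ratios were 5.10 for IFIH1, 7.86 for TLR3 and 169 for DHX58, which was nearly silent in KYSE150 controls with 15 reads over the 3 libraries. None of these 4 sensors overlapped between the native lines. MAVS, the shared adaptor, overlapped between them (ratio 0.941), and IRF3 was 1.16 times as high in KYSE180, also without overlap. The share of all genes without overlap between the native lines was not computed. IFNLR1 had 1408 reads in the KYSE180 controls and 0 in the KYSE150 controls, at least 515-fold higher in KYSE180 against a floor of 3 reads over the group. KYSE180 therefore had transcripts of every gene of the set, whereas native KYSE150 had 0 reads of IFNL2, IFNB1 and IFNLR1 and 1 read of IFNL1.

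On the FPKM scale IRF3 was the highest of the 10 genes in each group. In KYSE180 controls DDX58, IFIH1, MAVS and DHX58 followed, each neighbour in that order overlapping the next. In overexpressing cells MAVS (9.40 ± 1.36 FPKM) stood above IFIH1 (5.08 ± 0.244) without overlap, and DDX58 (3.53 ± 0.603) stood behind IFNLR1, DHX58 and IFNL1, overlapping only its neighbour IFNL1 in the order. In KYSE150 controls the order was IRF3, MAVS, IFIH1, DDX58, TLR3 and DHX58, with no overlap between neighbours. In shCDCA7 cells IFIH1 (7.93 ± 1.25 FPKM) reached the level of MAVS (8.02 ± 0.773), and their ranges overlapped.

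DDX58 (ENSG00000107201, chr9:32455705-32526324, minus strand) was at 22.7, 9.99 and 10.7 FPKM in KYSE180 control replicates 1 to 3 and at 2.88, 4.08 and 3.64 FPKM with CDCA7 overexpression. Every overexpressing library lay below every control, and control replicate 1 stood well above the other controls. The difference was -1.69 (SE 0.29), and -1.89 without control replicate 2. In KYSE150 it was at 1.22, 1.45 and 1.21 FPKM in controls and 3.59, 4.57 and 3.71 FPKM in shCDCA7 cells, again without overlap but in the other direction. That difference was 1.11 (SE 0.12), and 1.02 without shCDCA7 replicate 2.

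IFIH1 (ENSG00000115267, chr2:162267079-162318703, minus strand), which senses long double-stranded RNA, ran in parallel. KYSE180 controls were at 20.7, 8.75 and 11.6 FPKM and overexpressing cells at 4.82, 5.11 and 5.30 FPKM, with the lowest control, replicate 2, still above them. The difference was -1.19 (SE 0.27), and -1.45 without that control. KYSE150 controls were at 2.86, 2.60 and 2.60 FPKM and shCDCA7 cells at 7.08, 9.37 and 7.35 FPKM, all higher than the controls. The difference was 1.27 (SE 0.13), and 1.16 without shCDCA7 replicate 2. Overexpressing cells still held more IFIH1 transcript than native KYSE150 cells and less than shCDCA7 cells, with no overlap between these 3 groups.

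DHX58 (ENSG00000108771, chr17:42101404-42112733, minus strand) was at 14.9, 6.26 and 11.5 FPKM in KYSE180 controls and at 5.10, 4.79 and 4.75 FPKM in overexpressing cells. The groups did not overlap, though control replicate 2 lay close to the overexpressing cells. The difference was -0.95 (SE 0.26), and -1.27 without that control. KYSE150 controls gave 5, 8 and 2 reads (0.0608, 0.107 and 0.0260 FPKM) and shCDCA7 cells 53, 31 and 33 reads (0.872, 0.590 and 0.488 FPKM). The mean FPKM was 10.1 times as high in shCDCA7 cells. The gene passed the minimum of 10 reads in 3 libraries only through those cells. Their level stayed below 1 FPKM, far under that of either KYSE180 group.

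TLR3 (ENSG00000164342, chr4:186069152-186088069, plus strand), the endosomal sensor, was at 3.08, 1.10 and 1.98 FPKM in KYSE180 controls and 0.423, 0.589 and 0.783 FPKM in overexpressing cells. Each overexpressing library was below each control, by -0.89 (SE 0.23), or -1.13 without control replicate 2. In KYSE150 it was at 0.188, 0.298 and 0.297 FPKM in controls and at 0.292, 0.576 and 0.178 FPKM in shCDCA7 cells. These groups overlapped, with a difference of 0.09 (SE 0.11), and -0.03 without shCDCA7 replicate 2. TLR3 was thus the 1 sensor whose groups overlapped in KYSE150. That its change differed from those of the cytosolic sensors was not tested.

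**Figure D1:**
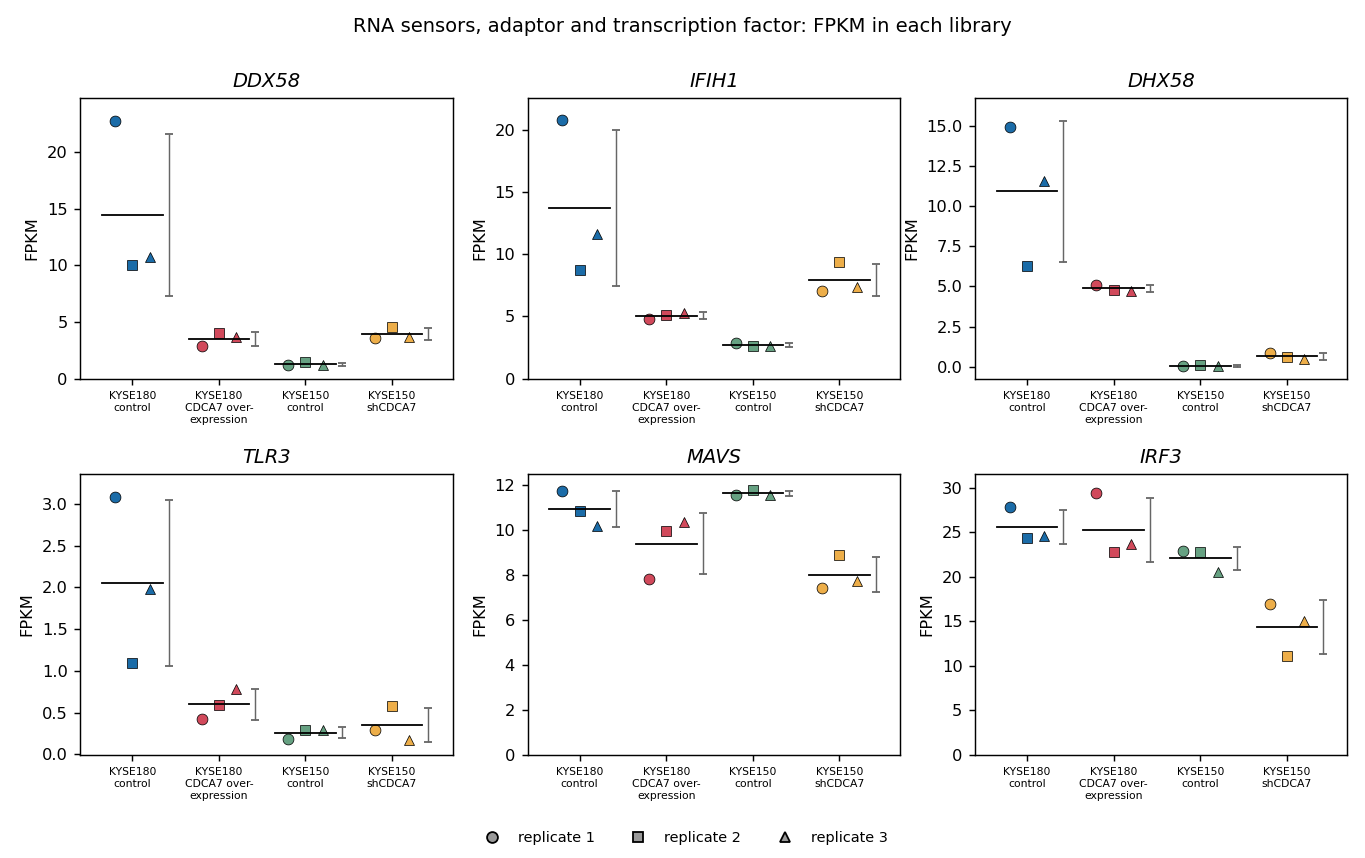
FPKM (linear axes from 0 or just below) of the 4 sensors, MAVS and IRF3 in each of the 12 libraries; marker shapes give the replicate, black lines the group mean and grey bars the mean ± 1 SD (n = 3). All overexpressing libraries lie below the KYSE180 controls for DDX58, IFIH1, DHX58 and TLR3, and all shCDCA7 libraries lie above the KYSE150 controls for DDX58, IFIH1 and DHX58 and below them for MAVS and IRF3.

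For transcripts of the signalling proteins MAVS and IRF3 the groups overlapped in KYSE180, and the shCDCA7 libraries lay below the controls in KYSE150. Whether their changes differed from those of the sensors was not tested. MAVS (ENSG00000088888, chr20:3846799-3876123, plus strand) was at 11.8, 10.9 and 10.2 FPKM in KYSE180 controls and at 7.85, 9.97 and 10.4 FPKM in overexpressing cells, and the groups overlapped (difference -0.21, SE 0.14). In KYSE150 the controls were at 11.6, 11.8 and 11.6 FPKM and the shCDCA7 cells at 7.42, 8.89 and 7.73 FPKM. All 3 shCDCA7 libraries lay below the tightly grouped controls, by -0.49 (SE 0.10), and by -0.56 without replicate 2.

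IRF3 (ENSG00000126456, chr19:49659569-49665875, minus strand) was at 27.8, 24.4 and 24.6 FPKM in KYSE180 controls and 29.4, 22.8 and 23.6 FPKM in overexpressing cells, overlapping with a difference of -0.02 (SE 0.13). In KYSE150 it was at 22.9, 22.8 and 20.6 FPKM in controls and at 16.9, 11.04 and 15.1 FPKM in shCDCA7 cells, all lower. The lowest library was shCDCA7 replicate 2. The difference was -0.61 (SE 0.16) and -0.44 without it. IRF3 shares 734 of its 3794 exonic bases with BCL2L12 on the opposite strand. Whether the counting used strand is not stated in the labels, so part of the IRF3 level could be BCL2L12 reads. BCL2L12 itself averaged 26.8 FPKM in KYSE150 controls and 24.6 in shCDCA7 cells.

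The lambda interferons were low in every group, and reads are given with FPKM for that reason. IFNL1 (ENSG00000182393, chr19:39296325-39298673, plus strand) had 20, 278 and 24 reads in KYSE180 controls (1.36, 17.5 and 1.42 FPKM) and 68, 46 and 74 reads in overexpressing cells (4.91, 2.99 and 4.69 FPKM). Control replicate 2 was the highest of all 12 libraries, while the other controls lay below every overexpressing library. The fitted difference of 0.12 (SE 0.72) therefore rests on that library, and without it the difference was 1.10. In KYSE150 controls there were 0, 1 and 0 reads, and in shCDCA7 cells 21, 7 and 11 reads (1.55, 0.597 and 0.730 FPKM). The pooled level was 50.4 times as high in shCDCA7 cells (95% counting interval 8.53 to 2041, from 39 reads against 1), and IFNL1 did not pass the filter there.

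IFNL2 (ENSG00000183709, chr19:39268514-39270092, plus strand) had 10, 21 and 3 reads in KYSE180 controls (0.790, 1.53 and 0.206 FPKM) and 17, 15 and 23 in overexpressing cells (1.43, 1.14 and 1.69 FPKM). The groups overlapped through control replicate 2. The difference was 0.45 (SE 0.25), and 0.71 without that control. KYSE150 controls had 0 reads in all 3 libraries, and shCDCA7 cells had 19, 16 and 16 (1.63, 1.59 and 1.23 FPKM). Against a floor of 3 reads over the control group this is at least 22.0-fold higher. The gene passed the filter in KYSE150 only through the shCDCA7 libraries.

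IFNL2 and IFNL3 are near-identical copies, so reads may be split between them or lost. Their transcripts matched at 719 of 734 aligned bases (98.0%), and 32.0% of 50-base windows of IFNL2 occurred unaltered in IFNL3. IFNL1 matched IFNL2 at 77.1% of aligned bases and shared no such window. IFNL3 had 7, 47 and 7 reads in KYSE180 controls, 33, 14 and 27 in overexpressing cells, 0, 0 and 2 in KYSE150 controls and 21, 5 and 15 in shCDCA7 cells. Its pooled level in shCDCA7 cells was 26.5 times that in KYSE150 controls (95% counting interval 6.88 to 226). All 3 lambda genes thus had more reads in each shCDCA7 library than in any KYSE150 control. Counting intervals and floors cover counting error only, since reads carried no molecular identifiers.

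IFNB1 (ENSG00000171855, chr9:21077105-21077963, minus strand), the gene of interferon beta, had 10, 33 and 5 reads in KYSE180 controls (0.678, 2.07 and 0.295 FPKM) and 6, 0 and 1 in overexpressing cells (0.432, 0 and 0.0632 FPKM). The groups overlapped. The pooled ratio of controls to overexpressing cells was 6.49 (95% counting interval 2.92 to 17.0, from 48 reads against 7), and 33 of the 48 control reads came from replicate 2. All 6 KYSE150 libraries had 0 reads, which allows up to 0.163 to 0.255 FPKM in a library at 3 reads. An IFNB1 change with the hairpin was not detectable at this depth, in cells where the lambda genes were read. Of 13 IFNA genes, 11 had 0 reads in every library.

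IFNLR1 (ENSG00000185436, chr1:24154157-24187959, minus strand), the specific chain of the lambda receptor, was at 5.60, 5.58 and 4.37 FPKM in KYSE180 controls and 4.64, 4.75 and 5.33 FPKM in overexpressing cells. These groups overlapped with a difference of -0.06 (SE 0.14). In KYSE150 only 1 read was found over all 6 libraries, in shCDCA7 replicate 1. Lambda interferon transcripts therefore appeared in shCDCA7 cells with IFNLR1 at or near 0 reads.

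**Figure D2:**
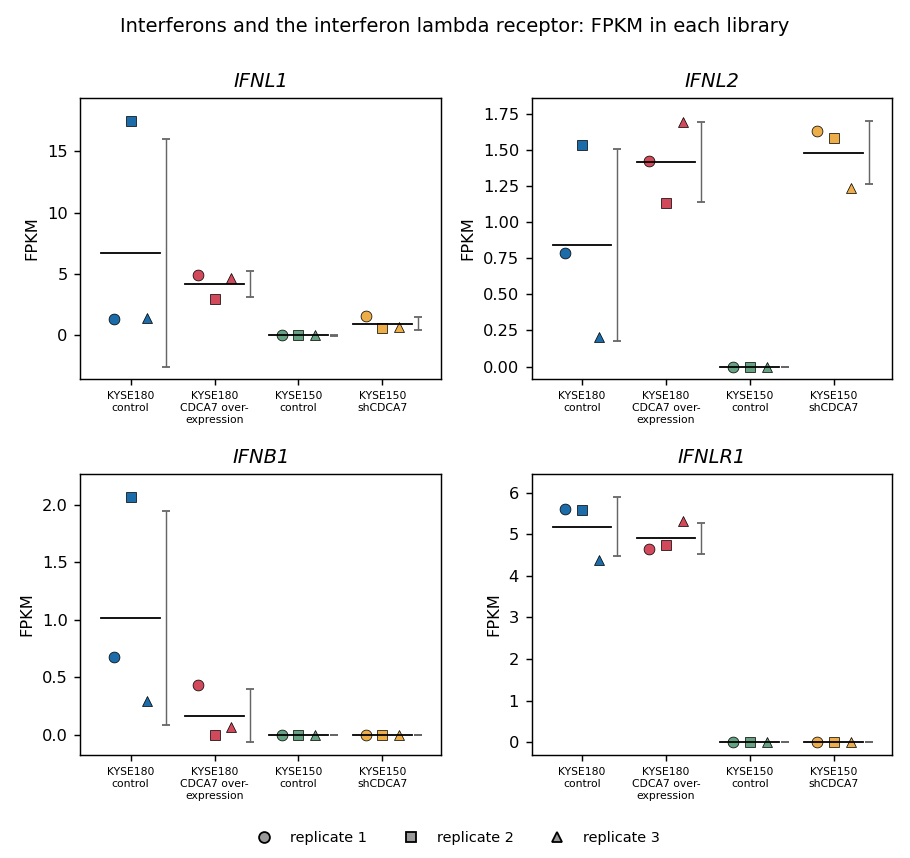
FPKM (linear axes) of IFNL1, IFNL2, IFNB1 and IFNLR1 in each library; marker shapes give the replicate, black lines the group mean and grey bars the mean ± 1 SD (n = 3), which for IFNL1 and IFNB1 reach below 0. KYSE180 control replicate 2 is highest for IFNL1 (17.5 FPKM) and IFNB1 (2.07 FPKM), and IFNLR1 is near 0 in all KYSE150 libraries.

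Across the set, 9 of 10 genes passed the filter in KYSE180, all but IFNB1. Of these, DDX58 and IFIH1 were called lower at an adjusted p under 0.05, where 4.43% of 15944 tested genes were called lower, 4.65% higher and 9.08% either way. In 4 of the 9, all sensors, the overexpressing libraries lay wholly below the controls, and 35.1% of tested genes had groups that did not overlap. Without control replicate 2 the call extended to 4 lower and 2 higher genes, with 2206 of all 16533 tested genes called. In KYSE150, 7 genes passed, and IFNL1, IFNB1 and IFNLR1 did not. DDX58, IFIH1, DHX58 and IFNL2 were called higher and IRF3 and MAVS lower, against 10.0% of 14342 tested genes called higher, 9.86% lower and 19.9% either way. All 6 had groups without overlap, as had 47.8% of tested genes. DHX58 and IFNL2 entered this test only through the shCDCA7 libraries, where they were high, so their calls are no evidence of a direction. These counts describe genes chosen on the same contrasts, and nothing is read from them. Leaving out 1 library moved them. The KYSE180 count was 0 without any 1 overexpressing library, where 4 to 163 of all tested genes were called. Without any 1 KYSE150 control (505 to 744 of all tested genes called), neither IRF3 nor MAVS was called. The same held without shCDCA7 replicate 3 (1488 of 14752).

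**Figure D3:**
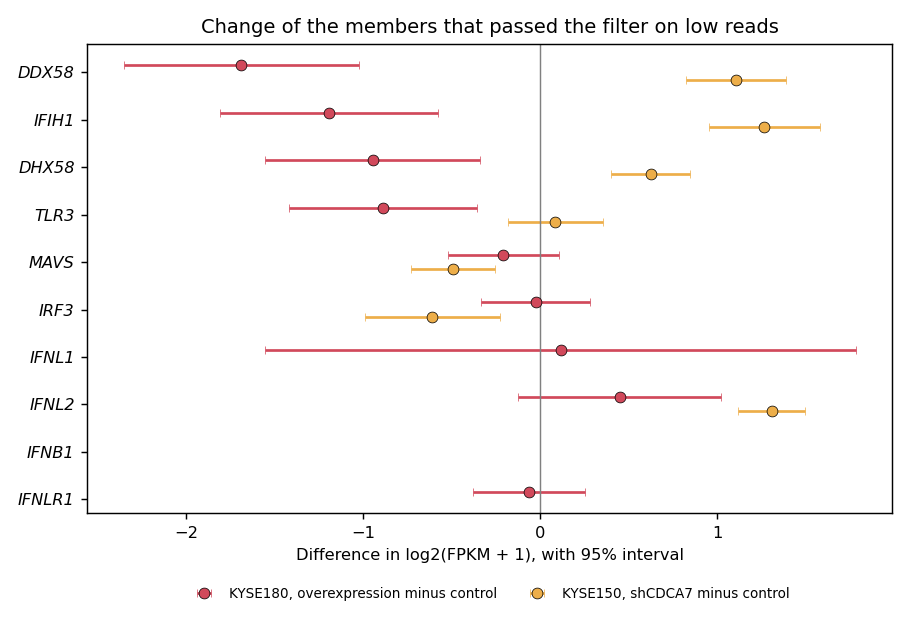
Difference in log2(FPKM + 1), manipulated minus control, with 95% intervals from limma-trend (n = 3 libraries per group) for the genes that passed the filter on low reads; red is KYSE180 and yellow KYSE150. The sensor points lie left of 0 in KYSE180 (-1.69 for DDX58) and, for DDX58, IFIH1 and DHX58, right of 0 in KYSE150 (1.11 for DDX58), and the IFNL1 interval is the widest.

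The KYSE180 controls differed among themselves in a pattern that set sensors and interferons apart. Control replicate 2 had the lowest DDX58, IFIH1, DHX58 and TLR3 of the 3 controls and the highest IFNL1, IFNL2 and IFNB1. Its IFNL1 was 12.9 and 12.3 times that of replicates 1 and 3, and its IFNB1 3.05 and 7.004 times. Replicate 1 had 2.27 times the DDX58, 2.38 times the DHX58 and 2.81 times the TLR3 of replicate 2. MAVS and IRF3 of replicates 1 and 3 stayed within 0.939 to 1.14 times replicate 2. The highest lambda and the highest sensor transcript were therefore found in different control libraries. Within the shCDCA7 group, replicate 2 had the highest DDX58 (4.57 FPKM), IFIH1 (9.37) and TLR3 (0.576). It had the fewest reads of IFNL1 (7) and IFNL3 (5), while IFNL2 varied little (16 to 19 reads). DHX58 went the other way, highest in shCDCA7 replicate 1 (0.872 FPKM), which also had the most IFNL1 and IFNL3 (21 reads each). The replicates carry no label that tells these libraries apart.

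**Figure D4:**
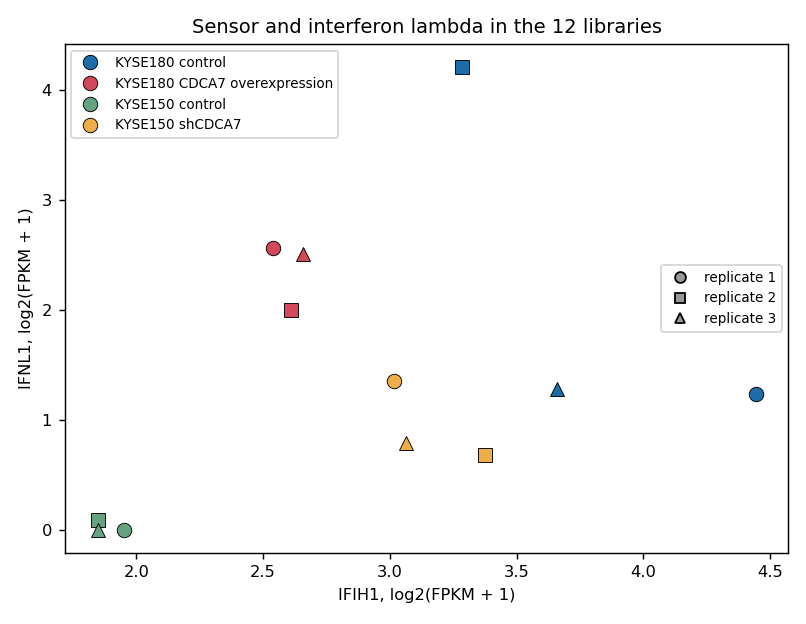
IFNL1 against IFIH1, both as log2(FPKM + 1), in the 12 libraries; colours give the group and shapes the replicate. KYSE180 control replicate 2 stands alone at the top (17.5 FPKM of IFNL1), the other KYSE180 controls are farthest right, and the KYSE150 controls sit at the lower left.

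Other genes of the pathway were followed in 8 lists, with a gene called at an adjusted p under 0.05 over all genes (limma, Benjamini-Hochberg). The lists were chosen with earlier results of these data known. Their shares of called genes, here and below, are therefore descriptions and no test of the lists. In KYSE180, 92 listed genes were tested, 2 were higher and 9 lower (11.96% called), with a median difference of -0.11 against -0.005 for all genes. Without control replicate 2 the count was 5 higher and 27 lower, with 2206 of all 16533 tested genes called. Without control replicate 1, overexpressing replicate 1 or overexpressing replicate 3 it was 0, with 56, 4 and 13 of all tested genes called. In KYSE150, 84 were tested, 18 were higher and 3 lower (25.0% called), with a median of 0.19 against 0.002. Without shCDCA7 replicate 2 the count was 39 higher and 18 lower, but 8030 of all 14861 tested genes were called there. The counts per list without that library, given below, come from the same fit. The KYSE150 split changed with some settings, and the cause was not tested. Scaled to library totals, which moved the median of all genes by -0.16, it was 13 higher and 12 lower, and with limma-voom, where that median was -0.27, 13 and 14. In KYSE180 limma-voom, with a median of -0.13, gave 2 higher and 19 lower.

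Among 20 genes of RIG-I-like receptor signalling, TRIM25, IKBKE and TRAF3 fell with overexpression. TRIM25, a ubiquitin ligase that activates RIG-I, was at 20.9 ± 7.84 FPKM in controls and 9.41 ± 1.12 in overexpressing cells (-1.02, adjusted p = 0.0432). IKBKE, the kinase that with TBK1 phosphorylates IRF3, went from 8.41 ± 1.82 to 3.95 ± 0.834 FPKM (-0.92, adjusted p = 0.0308). The list's median was -0.07. With the hairpin, ZC3HAV1 and TRAF6 rose. ZC3HAV1, the antiviral zinc finger protein ZAP, went from 7.24 ± 0.0828 to 16.5 ± 3.51 FPKM (1.07, adjusted p = 0.00717), and TRAF6, a ubiquitin ligase upstream of NF-kB, from 5.19 to 8.39 FPKM (0.59). The median was -0.12. The list gave 2 higher and 5 lower with library totals, 2 and 6 with limma-voom, and 8 higher and 6 lower without shCDCA7 replicate 2.

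Brakes on RNA sensing gave 0 calls among 12 genes in KYSE180 by limma-trend, 3 at an unadjusted p under 0.05 and 1 by limma-voom. In KYSE150, 4 of 11 rose and 1 fell, with a median of 0.34. NFKBIA, which holds NF-kB in the cytosol, rose from 11.7 ± 0.526 to 30.3 ± 3.81 FPKM (1.30, adjusted p = 0.00249). TNFAIP3, the deubiquitinase A20, rose from 4.76 ± 0.585 to 7.95 ± 0.156 FPKM (0.64), and ATG12 by 0.56; PCBP2 also rose. NLRX1, a mitochondrial protein reported to restrain MAVS, fell from 9.27 ± 0.298 to 5.16 ± 0.165 FPKM (-0.74, adjusted p = 0.00568). NFKBIA was called in all 14 alternatives. With library totals, and with limma-voom, it was the only 1 of the list called higher, and without shCDCA7 replicate 2 the list gave 6 higher and 2 lower.

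RIPK1, a kinase adaptor behind TLR3 and its partner TICAM1, fell in both lines. It was at 14.3, 10.9 and 9.61 FPKM in KYSE180 controls and 3.51, 4.92 and 4.43 in overexpressing cells (-1.25, adjusted p = 0.0140), and at 5.74, 7.04 and 6.50 FPKM in KYSE150 controls and 2.32, 3.28 and 2.69 in shCDCA7 cells (-0.99, adjusted p = 0.00721). MYD88, the adaptor of most other Toll-like receptors, fell in KYSE150 (-0.47). RIPK1, and in KYSE150 also MYD88, were the genes that limma-trend called among 6 of this endosomal list, with medians of -0.49 and -0.33. By limma-voom 2 were lower in KYSE180 and 3 in KYSE150. Without control replicate 2, 3 were lower in KYSE180, and without shCDCA7 replicate 2, 1 was higher and 4 lower in KYSE150. Of 5 cytosolic DNA sensing genes, IFI16 fell in KYSE180, from 23.1 ± 10.7 to 7.29 ± 0.847 FPKM (-1.43), and 2 fell without control replicate 2. In KYSE150 limma-trend called 0 of 4, with 1 at an unadjusted p under 0.05 and 1 by limma-voom, and without shCDCA7 replicate 2 it called 1 higher and 1 lower.

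Of 18 genes of double-stranded RNA binding, editing and decay, PNPT1, a mitochondrial RNA-degrading enzyme, fell in KYSE180 from 31.9 ± 17.5 to 10.9 ± 0.766 FPKM (-1.34), and the median was -0.37. Without control replicate 2, 8 fell. At an unadjusted p under 0.05, 9 were lower and 1 higher, and limma-voom called 6 lower. OAS1, OAS2 and OAS3 averaged 41.1 ± 34.3, 90.6 ± 90.5 and 103 ± 84.7 FPKM in KYSE180 controls. In overexpressing cells they averaged 5.84 ± 0.446, 4.14 ± 0.860 and 16.7 ± 3.95 FPKM, and limma-trend called none of them. In KYSE150 DDX60, OAS1 and OAS2 rose and the median was 0.19. DDX60, a helicase relative of the sensors, went from 1.59 ± 0.152 to 8.10 ± 1.94 FPKM (1.79, adjusted p = 0.00287). Without shCDCA7 replicate 2, 5 of the list rose and 4 fell. OAS1 and OAS2, which make the activator of RNase L, reached only 0.884 and 0.482 FPKM in shCDCA7 cells. OAS2 had 3 to 6 reads per KYSE150 control and passed the filter only through the shCDCA7 libraries. OAS1 was called in 10 of 14 alternatives and OAS2 in 9 of 13. IFNE, an interferon of epithelia, fell in KYSE180 from 16, 31 and 19 reads to 2, 4 and 11 (-0.57, adjusted p = 0.0446), and it was called in 6 of 13 alternatives, not without control replicate 2.

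Interferon receptors and JAK-STAT genes gave 2 higher of 18 in KYSE180 and 2 higher of 17 in KYSE150, with medians of 0.05 and 0.26. Without control replicate 2 the KYSE180 count was 2 higher and 5 lower, and without shCDCA7 replicate 2 the KYSE150 count was 9 higher and 1 lower. SOCS3, a feedback inhibitor of JAK kinases, rose from 5.21 ± 1.40 to 17.8 ± 2.31 FPKM with overexpression (1.61, adjusted p = 0.0086), and PTPN1, a phosphatase acting on JAK2 and TYK2, by 0.59. IFNGR1, a chain of the interferon gamma receptor, rose in KYSE150 from 7.49 ± 0.251 to 10.1 ± 0.129 FPKM (0.38, adjusted p = 0.0276). No gene of this list was called higher in KYSE150 with library totals or limma-voom.

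The list of direct IRF3 output genes had the median farthest from 0 in both lines. In KYSE150, 7 of 8 tested genes rose, with a median of 2.08, and the count was 7 with library totals and limma-voom too. CXCL10, CXCL11 and TNFSF10 did not pass the filter there. They had 3, 5 and 15 reads over the controls and 20, 10 and 19 over the shCDCA7 libraries. CCL5, a chemokine, went from 0.340, 1.05 and 0.893 FPKM to 15.4, 6.43 and 12.5 (2.77, adjusted p = 0.00478). IFIT1, which binds foreign RNA ends, went from 4.78, 6.74 and 6.29 to 37.5, 34.4 and 33.1 FPKM (2.39, adjusted p = 0.00166), and OASL from 5.68 ± 0.908 to 33.3 ± 3.76 FPKM (2.37). In KYSE180 IFIT3 and IFIT1 fell, 2 of 11, with a median of -0.86, and without control replicate 2 the list gave 2 higher and 5 lower. IFIT3 went from 166, 48.1 and 85.3 to 13.8, 17.9 and 18.6 FPKM (-2.34, adjusted p = 0.0214). CCL5 in KYSE180 read like IFNL1, at 10.8, 97.0 and 14.0 FPKM in controls and 73.7, 62.0 and 76.0 in overexpressing cells, with the highest value in control replicate 2.

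**Figure D5:**
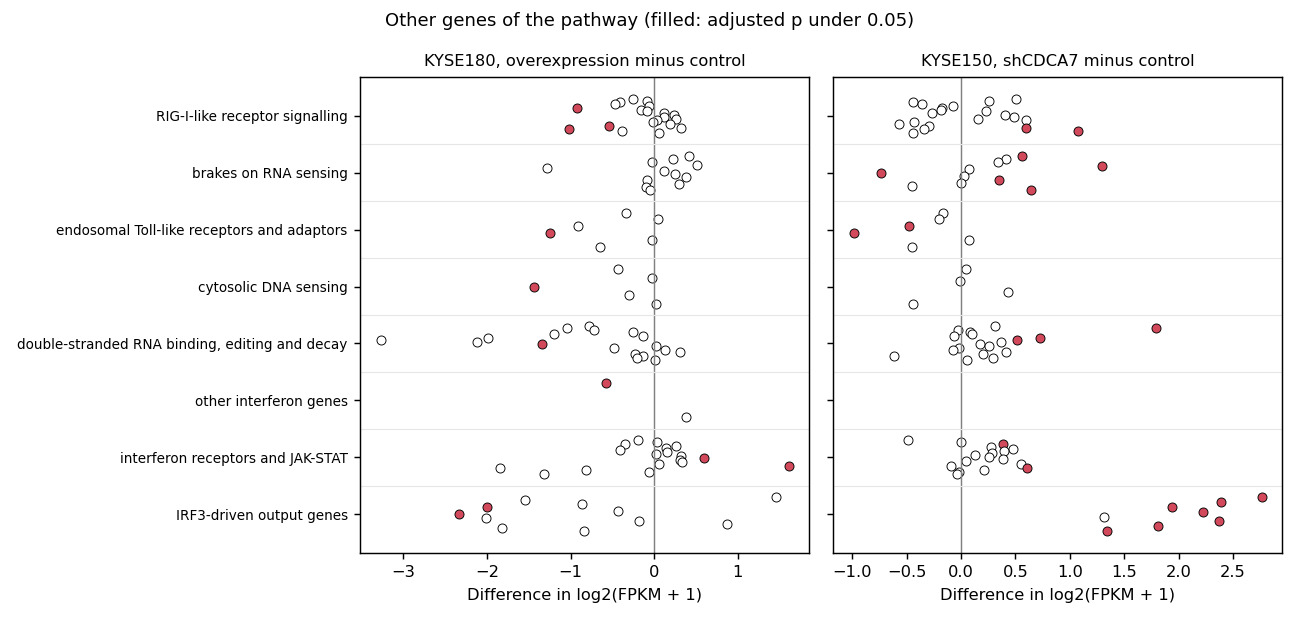
Difference in log2(FPKM + 1), manipulated minus control, of each tested gene in the 8 pathway lists, for KYSE180 (left) and KYSE150 (right, on its own scale); filled points have an adjusted p under 0.05 (limma-trend) and vertical spread within a row only separates points. The IRF3-driven output genes lie right of 0 in KYSE150 (median 2.08), with 7 of 8 filled, and mostly left of 0 in KYSE180 (median -0.86).

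The difference of the manipulations, overexpression minus its control less shCDCA7 minus its control, was called for 11 of 92 listed genes (11.96%), where 5.57% of all 17088 tested genes were called. NLRX1 was the 1 higher gene (0.86, adjusted p = 0.00367) and 10 were lower. Lowest were IFIT3 (-4.56, adjusted p = 0.00161), IFIT1 (-4.39, adjusted p = 0.00321) and RSAD2, an antiviral radical SAM enzyme (-3.16, adjusted p = 0.0133), followed by DDX60 (-2.84). The line and the kind of manipulation changed together and cannot be told apart. Without KYSE180 control replicate 2 the count was 27, and without shCDCA7 replicate 2 it was 17.

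By Pearson correlation of log2(FPKM + 1) over the 12 libraries among 13377 genes tested in both lines, the genes most like DDX58 were IFIT3 (0.979), TENT5A (0.959), IFI44 (0.958), HERC6 (0.957) and RSAD2 (0.955). Most like IFIH1 were IFIT3 (0.978), RSAD2 (0.970), IFIT1 (0.969), DDX60 (0.956) and DDX58 (0.953). Among the genes most like IFNL1 were SEMA3D (0.932), ALKBH1 (0.932), SLC2A13 (0.919) and CCL5 (0.918). These points share line, group and library, so the values are descriptions. Within the 6 libraries of a line, IFIT3 and DDX58 gave 0.986 in KYSE180 and 0.988 in KYSE150. SEMA3D and IFNL1 gave 0.972 and -0.201, and CCL5 and IFNL1 0.826 and 0.958.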

How the data were processed

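RNA sequencing of 12 libraries was deposited as 1 table of values per gene and library; the values are FPKM as the authors made them, since multiplied by gene length they fall on whole reads in every library (100% of values above 0, tolerance 0.01 reads), which were recovered. Per the submitters' processing notes, HISAT2 2.0.5 and DESeq2 1.20.0 were used and mm10 was named; all 58735 gene positions match GENCODE 29 for human GRCh38. What counted the reads is not stated there. Groups came from the labels. Each line's 6 libraries were fitted with limma-trend (limma 3.58.1, R 4.3.3) on log2(FPKM + 1), and all 12 in 1 fit for the difference of the manipulations, with Benjamini-Hochberg adjustment, two-sided, at 0.05. Genes needed 10 reads per median-sized library in 3 libraries and 15 in all. The fits were tested on simulated data. Genes and lists were chosen with earlier results of these data known. Named were all 10 genes, CDCA7, IFNL3 and up to 3 called genes per list, line and direction. The 5 genes most like DDX58, IFIH1 and IFNL1 were named too. Others, such as PCBP2, BCL2L12, and in KYSE180 CCL5 and the OAS genes, were named after their values were seen. Some genes that this rule selects are not reported here. Alternatives were an added 0.1, other filters and scalings, limma-voom, a replicate block, an all-library fit, a threshold of 0.01 and leaving out each library.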

Additional observations from a re-analysis of the deposited data

Results flagged for a closer look

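For 11 genes of the pathway lists, of which the 9 with the largest sizes per list (up to 3 each) are named, the change with overexpression in KYSE180 differed from the change with the hairpin in KYSE150 by a test of the difference itself (limma-trend, 1 fit of 12 libraries). Lower in this difference were IFIT3 (-4.56), IFIT1 (-4.39), RSAD2 (-3.16), DDX60 (-2.84), IFI16 (-1.86), ZC3HAV1 (-1.45), AZI2 (-0.75) and IFNGR1 (-0.74), in log2 units, and NLRX1 was higher (0.86). IFIT3, IFIT1, RSAD2, DDX60 and ZC3HAV1 were called in all 19 alternatives, NLRX1 in 18, IFI16 and AZI2 in 8 and IFNGR1 in 5.

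For 3 sensors every overexpressing library lay below every KYSE180 control and every shCDCA7 library above every KYSE150 control. Groups did not overlap, in either direction, for 35.1% of tested genes in KYSE180 and 47.8% in KYSE150. The share of all genes with opposite directions in both lines was not computed. The differences of the manipulations were -2.79 for DDX58, -2.46 for IFIH1 and -1.57 for DHX58, and they were not tested because the genes were chosen on these values.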

How the results depend on the processing

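Of the listed pathway genes, 11 were called in KYSE180. The count was 0 with no filter on low reads, 21 with limma-voom and 22 in the fit of all 12 libraries. It was 1 at a threshold of 0.01, and 0 to 32 leaving out 1 library at a time. Calls over all genes moved too. They were 3 of 31719 with no filter, 2105 of 15944 with limma-voom and 2893 of 17088 in the fit of all 12 libraries. Leaving out 1 library they ran from 4 to 2278, against 1447 of 15944 in the main fit. In KYSE150, 21 were called, 12 at 0.01 and 9 to 57 leaving out 1 library. The 57 was without shCDCA7 replicate 2, where 8030 of all 14861 tested genes were called. It was 9 without control replicate 2 (505 of 14747), and 12 without control replicate 1 or 3 (532 of 14681 and 744 of 14737). For the difference of the manipulations 11 were called, 6 at 0.01 and 7 to 27 leaving out 1 library. A lower count at 0.01 follows from the threshold, and without the filter more genes are tested; for the other settings the cause was not tested. With the replicate number as a block (replicate block), the counts were 6 in KYSE180, 14 in KYSE150 and 6 for the difference. Deviations of same-numbered libraries from their group means correlated at -0.07 to 0.05 in KYSE180 and at -0.08 to 0.004 in KYSE150. Whether same-numbered libraries were handled together is not in the labels and cannot be told from these values. For the genes described, no fitted difference that was called changed direction in any alternative. IFNL1 in KYSE180 ran from -0.38 to 1.10, with 12 of 14 alternatives above 0. With few reads, IFNL2 and DHX58 in KYSE150 depend on the added constant, up to 5.23 and 3.07. Of 547 alternatives of the named pathway genes, 386 kept direction and call and 161 lost the call.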
